A study of Homo sapiens with 8 samples.

Results

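The 9 genes described here encode transcription regulators of epithelial differentiation: ELF3, EHF, GRHL2, GRHL3, KLF4, KLF5, OVOL1, FOXQ1 and VGLL1. They were taken from 19775 genes that had a probe set annotated to a single symbol, and each was read by 1 probe set, that of highest mean log2 signal over the 8 arrays. The 9 genes had 21 such probe sets in all, so 12 served as a check, and FOXQ1, GRHL2 and GRHL3 had 1 each. All 9 passed the filter on dim genes (2 or more of the 6 adenovirus arrays with a signal of 50 or above), as did 8982 genes in all.

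In stratified epithelia, cells leave the basal layer, stop dividing and switch on barrier genes, and transcription factors of several families direct this switch. ELF3 and EHF are ETS-domain factors found mainly in epithelia, and GRHL2 and GRHL3 are grainyhead-like factors needed for epithelial junctions and the skin barrier. KLF4 and KLF5 are zinc-finger factors of the Krüppel-like family: KLF4 is needed to form the epidermal barrier, while KLF5 is best known in dividing cells. OVOL1 is a zinc-finger repressor linked to growth arrest of keratinocytes, FOXQ1 is a forkhead factor, and VGLL1 is a co-factor without a DNA-binding domain of its own that binds TEAD factors.

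The cells were HaCaT, a spontaneously immortalised line of human epidermal keratinocytes, so all groups come from 1 line. Cells in 6 groups were infected with an adenovirus carrying LacZ (the control), HRAS G12V (constitutively active) or HRAS N116Y (dominant negative), and were left untreated or given TGF-beta3 at 5 ng/ml for 24 h. In the other 2 groups, cells without virus or TGF-beta3 were transfected with a control siRNA or a p53 siRNA. Each group was 1 array, so there are no replicates within a group, the number of arrays limits the precision, and the spread behind each p-value may be technical. The sources used here give no viral dose.

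Between 28.0% and 29.9% of probe sets reached a signal of 50 on an array. Actin probe sets at the 3' and 5' ends had a signal ratio of 1.16 to 1.39 on the 6 adenovirus arrays but 3.68 and 4.01 on the siRNA arrays. No fit or ratio of conditions joins siRNA and adenovirus arrays, though the last paragraph sets EHF probe set signals of both side by side. HRAS, whose probe set is not placed relative to the viral insert here, read 315.7 and 287.0 (untreated, then TGF-beta3) under LacZ, 108.8 and 86.1 under HRAS G12V, and 67.1 and 58.1 under HRAS N116Y. It therefore does not check the inserts. The TGF-beta response genes SMAD7, SKIL, PMEPA1 and TGFBI all rose with TGF-beta3 (log2 changes from 1.63 to 3.02), with the TGF-beta state taken from the titles and the stimulation field, where the source names of the 6 adenovirus samples state the reverse. All 4 measured keratinocyte markers (KRT5, KRT14, DSG3 and ITGB4) reached a signal of 50. So did 2 of 6 fibroblast markers (COL1A1 and COL3A1), and 1 of 4 melanocyte markers (MITF). Of 5 leukocyte and 5 endothelial markers 0 did, and 3 of 5 in each list stayed below 20 on every array. On the adenovirus arrays the summed signal of the keratinocyte markers was 11130.8 to 12633.8 without and 15851.4 to 16297.1 with TGF-beta3, and on the siRNA arrays it was 7868.1 (control) and 8191.0 (p53 siRNA). The summed signal of the fibroblast markers was 80.5 (LacZ), 81.2 (HRAS G12V) and 174.6 (HRAS N116Y) untreated and 226.6, 313.4 and 416.4 with TGF-beta3. It thus moved with TGF-beta3 and with HRAS N116Y, and its part in the results was not tested. In bulk RNA, fewer cells of a type and less RNA per cell cannot be told apart.

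RefSeq promoter windows were matched by symbol for 7 of the 9 genes, 10 windows in all. The windows of 3 genes are shown 5' to 3' over the 250 bases before the start site (GRCh38.p14), all on the plus strand. They are ELF3 at chr1:202010337-202010586 and VGLL1 at chrX:136531965-136532214, whose signals ran alike over the adenovirus arrays, and FOXQ1 at chr6:1311848-1312097, which of the 9 had the largest change with TGF-beta3. Capitals mark motif matches on either strand.
ELF3: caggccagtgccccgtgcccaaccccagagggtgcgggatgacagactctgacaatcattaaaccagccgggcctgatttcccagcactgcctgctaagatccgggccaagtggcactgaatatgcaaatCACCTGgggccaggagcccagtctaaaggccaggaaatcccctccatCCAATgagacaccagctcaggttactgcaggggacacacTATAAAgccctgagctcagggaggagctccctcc
VGLL1: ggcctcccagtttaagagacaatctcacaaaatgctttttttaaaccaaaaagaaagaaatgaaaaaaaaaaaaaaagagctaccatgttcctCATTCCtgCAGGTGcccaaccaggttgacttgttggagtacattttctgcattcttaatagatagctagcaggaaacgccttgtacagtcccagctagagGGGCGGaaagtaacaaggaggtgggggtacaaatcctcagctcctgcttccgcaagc
FOXQ1: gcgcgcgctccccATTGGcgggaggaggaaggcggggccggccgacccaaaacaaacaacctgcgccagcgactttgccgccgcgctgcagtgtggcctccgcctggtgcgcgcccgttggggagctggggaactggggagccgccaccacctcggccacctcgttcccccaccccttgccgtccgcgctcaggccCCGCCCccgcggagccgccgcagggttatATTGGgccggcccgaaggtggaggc

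The E-box motif CAGGTG was held by 17.5% of all 35116 promoter windows of this length. It was found in the ELF3 window on the minus strand 120 bases before the start site and in the VGLL1 window at 149. Of the 10 windows of the members 3 held it, the third being that of GRHL3 (minus strand, at 21). The FOXQ1 window did not hold it. The TEAD motif GGAATG, held by 11.9% of windows, was found in the VGLL1 window on the minus strand at 157. The GC box GGGCGG, in 42.6% of windows, lay in the VGLL1 window at 57 and in the FOXQ1 window on the minus strand at 54. The TATA box TATAAA, in 10.7% of windows, lay in the ELF3 window at 34.

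The motif CCAAT, in 32.0% of windows, lay in the ELF3 window at 73 and in the FOXQ1 window on the minus strand at 237 and at 25. The SMAD motif CAGACA, held by 13.6% of windows, was not found in these 3, nor was the AP-1 motif TGANTCA, held by 6.57%. The ETS motif CCGGAA, held by 14.5%, was not found in them either. The windows of ELF3, VGLL1 and FOXQ1 were 58.4%, 43.6% and 74.0% G and C, against a median of 58.0% for all. No motif shares letters with another in these windows, the matches describe letters only, and binding was not measured.

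TGF-beta3 was set against no treatment over the 3 vectors to ask how these regulators respond to the ligand. FOXQ1, VGLL1, KLF5 and ELF3 fell, OVOL1 rose, and EHF, GRHL2, GRHL3 and KLF4 did not pass the test. Thus 5 of 9 genes (55.6%) were called at an adjusted p under 0.05, where 33.8% of all tested genes were. By direction, 4 were lower (17.4% of all tested genes were) and 1 was higher (16.3%). The median log2 change of the 9 was -0.29, and that of all tested genes was -0.01.

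In untreated cells FOXQ1 read 1014.5 under LacZ, 1318.4 under HRAS G12V and 746.5 under HRAS N116Y, and 300.4, 258.0 and 177.5 with TGF-beta3. The lowest untreated signal was thus above the highest treated one. The fitted fall was 4.17-fold (log2 change -2.06 ± 0.13 SE, adjusted p = 3.61e-06, limma on the 6 arrays). KLF5 read 731.6, 835.5 and 412.5 untreated, in the same order of vectors, and 293.5, 407.1 and 236.9 with TGF-beta3. Here too the treated signals all lay below the untreated ones, though only narrowly between HRAS N116Y untreated and HRAS G12V treated. The fall was 2.07-fold (log2 change -1.05 ± 0.13 SE, adjusted p = 0.000152).

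VGLL1 read 174.7, 105.6 and 530.3 untreated and 57.6, 65.6 and 216.5 with TGF-beta3. It was lower with TGF-beta3 in all 3 vectors, but the treated HRAS N116Y array was above 2 of the 3 untreated arrays. The fitted fall was 2.29-fold (log2 change -1.19 ± 0.18 SE, adjusted p = 0.000636), and the log2 change was -0.65 when its probe sets were averaged. ELF3 read 394.1, 228.7 and 708.8 untreated and 208.2, 123.9 and 464.5 with TGF-beta3, a fall of 1.75-fold (log2 change -0.80 ± 0.12 SE, adjusted p = 0.000683). As for VGLL1, the vectors differed so much that treated and untreated signals overlapped. Without the vector in the model neither fall was called (adjusted p = 0.214 for VGLL1 and 0.288 for ELF3), while over the alternatives that kept the 6 arrays and the model the adjusted p in limma's test was 0.000688 to 0.0137 and 0.000717 to 0.00764.

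OVOL1 was the member that rose. Its signal was 314.0, 271.0 and 298.6 untreated and 483.1, 409.7 and 495.2 with TGF-beta3, so the 2 sets of 3 arrays did not overlap. The rise was 1.57-fold (log2 change 0.65 ± 0.11 SE, adjusted p = 0.00155), and the log2 ratio was 0.62, 0.60 and 0.73 in the 3 vectors. Its relative OVOL2, also a zinc-finger repressor of epithelia, fell by 0.81 on the log2 scale (adjusted p = 0.00468).

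**Figure D1:**
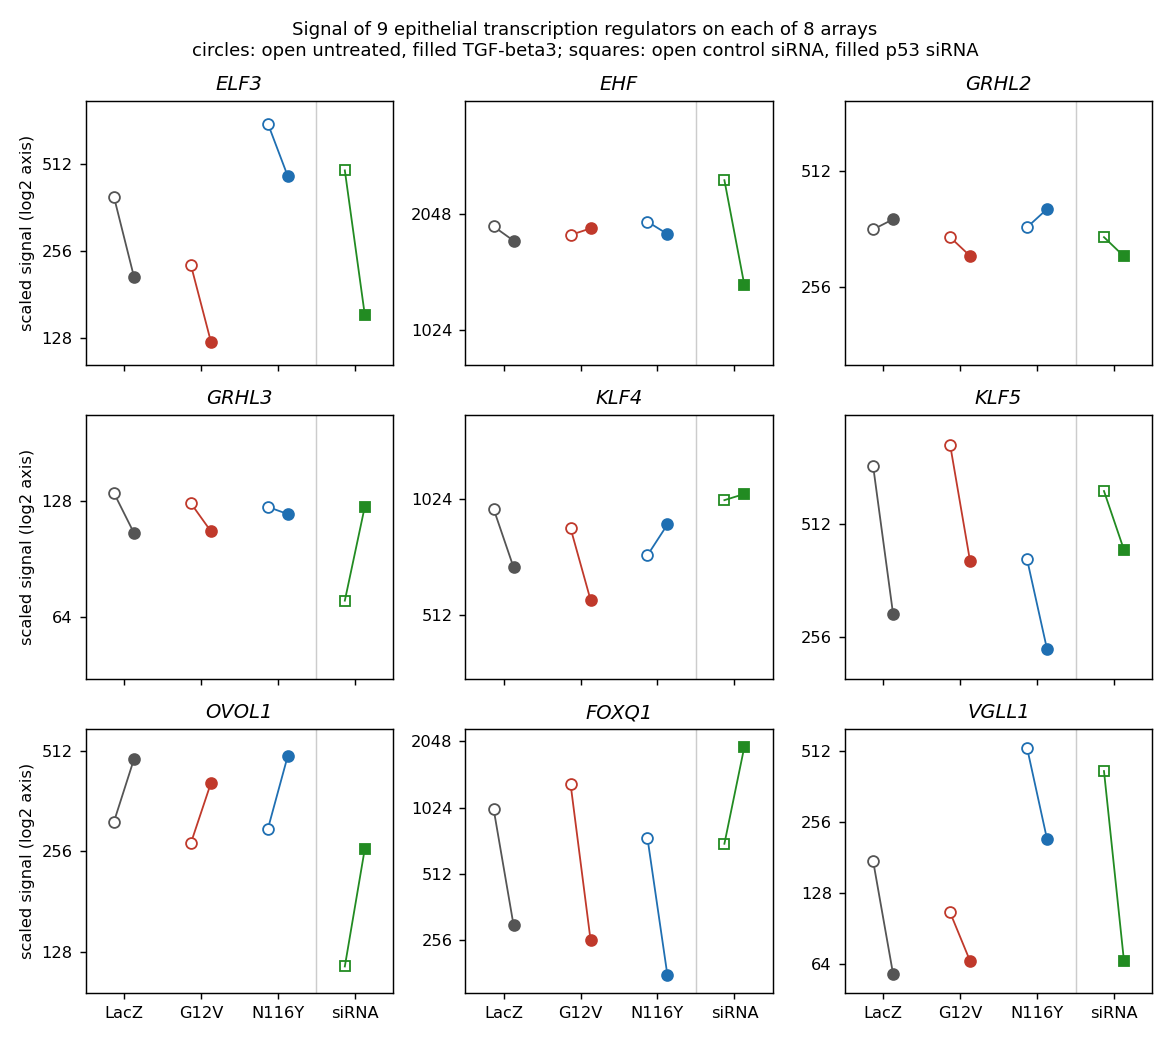
Scaled signal of each of the 9 genes (y axis, log2 spacing, a range of its own in each panel) on each of the 8 arrays. Circles are LacZ, HRAS G12V and HRAS N116Y arrays, open untreated and filled with TGF-beta3, and squares are the siRNA arrays, open control and filled p53; lines join the 2 arrays of a pair. FOXQ1, KLF5, VGLL1 and ELF3 go down and OVOL1 goes up from open to filled circle in all 3 vectors, and ELF3 and VGLL1 are highest with HRAS N116Y at each TGF-beta state.

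The remaining 4 genes moved little or unevenly by their chosen probe sets. EHF read 1900.2, 1805.3 and 1954.4 untreated and 1744.2, 1877.1 and 1815.4 with TGF-beta3, and the 95% interval of its log2 change was -0.29 to 0.18. GRHL2 read 361.3, 345.0 and 365.9 untreated and 384.0, 308.3 and 408.1 treated (interval -0.24 to 0.29). GRHL3 read 134.5, 126.5 and 123.8 untreated and 105.9, 107.0 and 118.6 treated, lower in all 3 pairs but by log2 ratios of only -0.34, -0.24 and -0.06 (interval -0.55 to 0.12). Changes of 2-fold thus lie outside all 3 intervals, which are those of the chosen probe sets. Other EHF probe sets had log2 ratios of -0.67, -1.20, -0.67 and -0.71 under HRAS N116Y, and a dim one had -0.05.

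KLF4 split by vector. Untreated, it read 968.1 under LacZ, 862.5 under HRAS G12V and 732.7 under HRAS N116Y, and 681.8, 561.7 and 881.0 with TGF-beta3. The treated signal was lower under LacZ and HRAS G12V (log2 ratios -0.51 and -0.62) and higher under HRAS N116Y (0.27). The limma fit over 6 arrays gave -0.29 (interval -0.64 to 0.06, adjusted p = 0.188), while without the HRAS N116Y arrays it gave -0.56 and a call (adjusted p = 9.62e-05). The fit without these arrays leaves 1 residual degree of freedom. It called 3987 of 8737 genes, against 3033 of 8982 in the fit of 6 arrays. The response with HRAS N116Y differed from that with LacZ by 0.77 on the log2 scale, a difference that was not tested. The other KLF4 probe set had log2 ratios of -0.57, -0.55 and -0.16, so its sign with HRAS N116Y was the opposite.

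**Figure D2:**
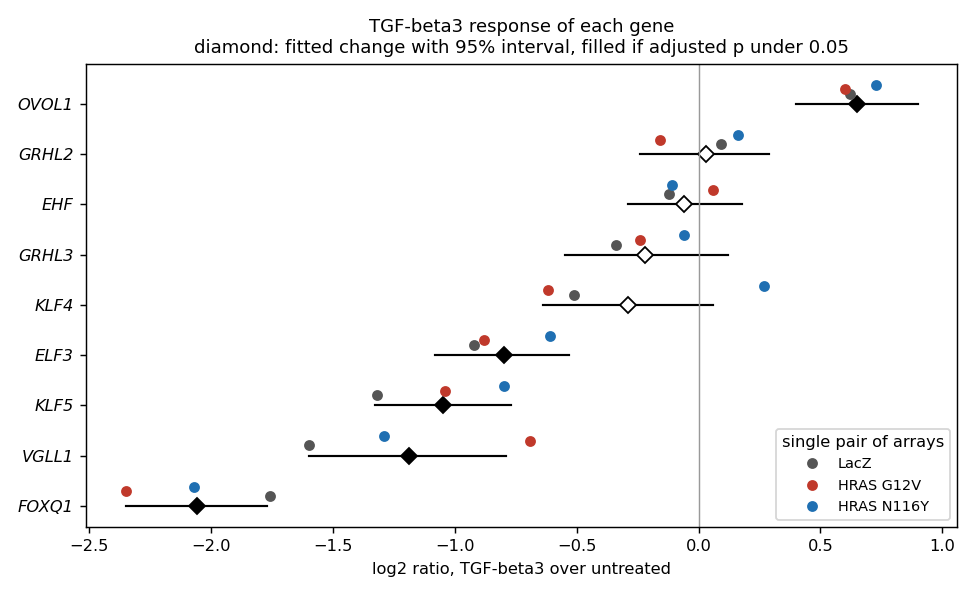
Log2 ratio of TGF-beta3 over untreated (x axis) for the 9 genes (y axis, ordered by size). Diamonds with bars are the fitted change over the 6 adenovirus arrays and its 95% interval, filled where the adjusted p is under 0.05, and coloured circles are the single pairs of arrays. FOXQ1 lies at -2.06 and OVOL1 at 0.65, and the KLF4 circle of HRAS N116Y (0.27) lies apart from those of LacZ (-0.51) and HRAS G12V (-0.62).

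By the chosen probe sets, the size of the response varied among vectors for the called genes as well. For VGLL1 the log2 ratio was -1.60 under LacZ, -0.69 under HRAS G12V and -1.29 under HRAS N116Y. FOXQ1 had -1.76, -2.35 and -2.07, KLF5 -1.32, -1.04 and -0.80, and ELF3 -0.92, -0.88 and -0.61. With 1 array per group these differences have no error and were not tested. Other probe sets gave another order of vectors. From LacZ to HRAS G12V to HRAS N116Y, the second VGLL1 probe set had -0.39, -0.73 and -1.18. The second KLF5 probe set had -0.76, -0.34 and -1.16. The 2 other ELF3 probe sets had -0.39, -1.41 and -1.14, and -0.84, -1.31 and -1.18. In single pairs, 3 of 9 genes were at least 2-fold lower with LacZ (FOXQ1, VGLL1 and KLF5), against 4.4% of genes with a signal of 50 on either array, and 0 were higher, against 4.22%. Lower genes numbered 2 with HRAS G12V (FOXQ1 and KLF5, against 4.54%) and 2 with HRAS N116Y (FOXQ1 and VGLL1, against 4.94%), and again 0 were higher, against 5.53% and 4.9%.

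Dominant negative RAS was then set against LacZ. ELF3 and VGLL1 were higher with HRAS N116Y in both TGF-beta states. ELF3 rose from 394.1 to 708.8 in untreated cells and from 208.2 to 464.5 with TGF-beta3, 2.0-fold in the fit (log2 change 1.00 ± 0.15 SE, adjusted p = 0.0073). VGLL1 rose from 174.7 to 530.3 and from 57.6 to 216.5, 3.38-fold in the fit (log2 change 1.76 ± 0.22 SE, adjusted p = 0.0027). For VGLL1 both HRAS N116Y arrays lay above both LacZ arrays, and the same holds for ELF3. The fibroblast marker sum was also higher with HRAS N116Y, 174.6 against 80.5 untreated and 416.4 against 226.6 with TGF-beta3, and its part in this result was not tested. ELF3 and VGLL1 were 2 of 9 genes, where 2.43% of all tested genes were called (1.58% higher and 0.846% lower). In single pairs, VGLL1 was at least 2-fold higher in untreated cells (1 of 9, against 1.18% of genes higher and 0.738% lower), and ELF3 and VGLL1 were with TGF-beta3 (2 of 9, against 3.03% higher and 1.59% lower).

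Both calls were lost under 2 of 7 alternatives. Keeping dim genes, the adjusted p in limma's test was 0.0987 for ELF3 and 0.0992 for VGLL1, and averaging a gene's probe sets it was 0.0605 and 0.0552. The log2 changes hardly moved for ELF3 (1.00 to 1.01), while that of VGLL1 was 1.01 with the mean, which includes a probe set below 20 on all 8 arrays.

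By their chosen probe sets, KLF5 and FOXQ1 had lower signals with HRAS N116Y in both states. The second KLF5 probe set read 388.7 against 360.2 with LacZ untreated, and 174.0 against 212.9 with TGF-beta3. The chosen KLF5 probe set had log2 ratios of -0.83 untreated and -0.31 with TGF-beta3 (limma fit -0.57 ± 0.16 SE, adjusted p = 0.0997). FOXQ1 had -0.44 and -0.76 (limma fit -0.60 ± 0.16 SE, adjusted p = 0.0927). Neither was called, although FOXQ1 passed in a limma fit without the HRAS G12V arrays, which leaves 1 residual degree of freedom (adjusted p = 0.0394). The intervals of EHF (-0.24 to 0.34), GRHL2 (-0.27 to 0.38), GRHL3 (-0.39 to 0.44), KLF4 (-0.45 to 0.41) and OVOL1 (-0.33 to 0.29) span 0. For KLF4 that average joins a log2 ratio of -0.40 without TGF-beta3 to one of 0.37 with it.

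Active RAS against LacZ gave no call among the 9 genes in limma's test, 1 with an unadjusted p under 0.05, and only 0.0445% of all tested genes passed. ELF3 had the lowest p of them. It read 228.7 against 394.1 untreated and 123.9 against 208.2 with TGF-beta3, log2 ratios of -0.79 and -0.75 (fit -0.77 ± 0.15 SE, interval -1.10 to -0.43, adjusted p = 0.336). Both HRAS G12V values lay below the LacZ value of the same TGF-beta state. When the HRAS N116Y arrays were left out, which leaves 1 residual degree of freedom, ELF3 was called (adjusted p = 0.00794). VGLL1 had log2 ratios of -0.73 untreated and 0.19 with TGF-beta3 by its chosen probe set, which was thus lower in only 1 state. Its second probe set was lower in both, with 51.4 against 61.9 untreated and 31.0 against 47.1 with TGF-beta3. KLF5 had 0.19 and 0.47 (interval -0.01 to 0.68), FOXQ1 0.38 and -0.22, and the other 5 genes lay between -0.32 and 0.11 in every pair. Thus 0 of 9 were 2-fold apart in either pair, against 0.173% of genes higher and 0.231% lower in untreated cells and 0.25% and 0.341% with TGF-beta3.

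The active and dominant negative forms were also set against each other, a comparison that shares its arrays with the 2 before it. ELF3 was 3.41-fold lower with HRAS G12V than with HRAS N116Y (log2 change -1.77 ± 0.15 SE, adjusted p = 0.000153), and VGLL1 was 4.07-fold lower (-2.03 ± 0.22 SE, adjusted p = 0.000554). Both passed in all 7 alternatives that kept the 6 arrays and the model, although the log2 change of VGLL1 was -1.25 when its probe sets were averaged. KLF5 was 1.87-fold higher with HRAS G12V (0.90 ± 0.16 SE, adjusted p = 0.00692) and FOXQ1 1.6-fold higher (0.68 ± 0.16 SE, adjusted p = 0.0324). The KLF5 call was lost with no filter (adjusted p = 0.0598) and with the mean of its probe sets (0.41, adjusted p = 0.159). FOXQ1 passed in 3 of 7 alternatives, with adjusted p in limma's test from 0.0339 to 0.119. In all, 4 of 9 genes (44.4%) were called, 2 in each direction, where 6.38% of all tested genes were (2.58% higher and 3.8% lower). The other 5 genes were not called, with intervals from -0.64 to 0.35. In the untreated pair ELF3 and VGLL1 were at least 2-fold lower and KLF5 was higher (against 2.49% of genes lower and 1.06% higher), and with TGF-beta3 ELF3 and VGLL1 were lower (against 3.73% lower and 2.51% higher).

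**Figure D3:**
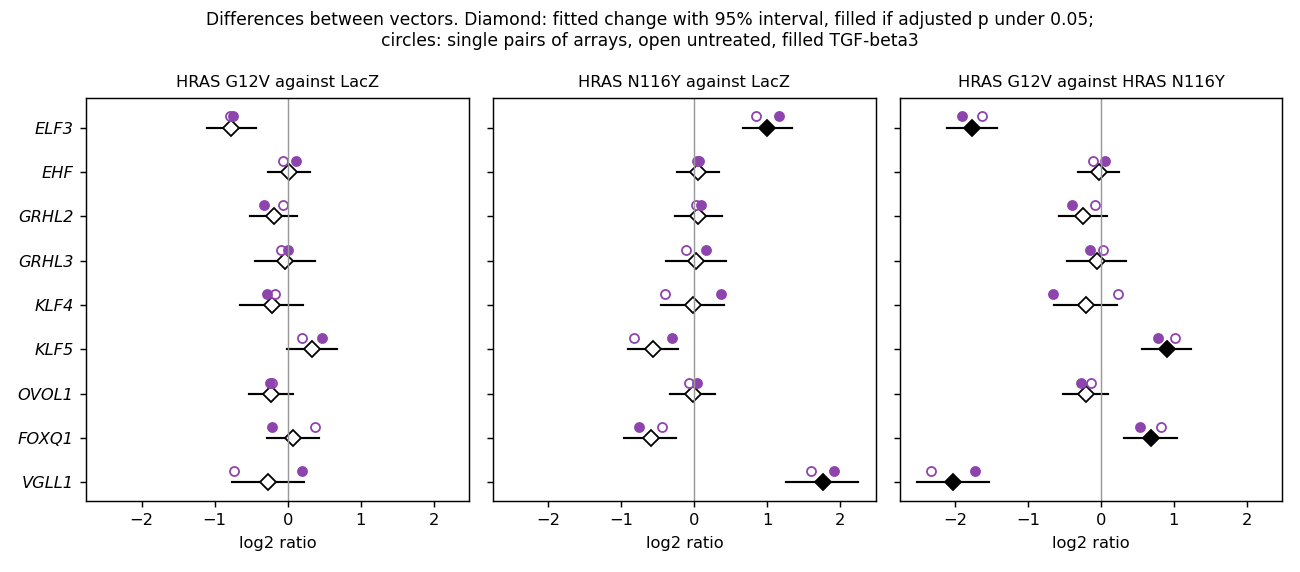
Log2 ratio (x axis) of the 9 genes (y axis) in 3 comparisons of vectors. Diamonds with bars are fitted changes with 95% intervals, filled where the adjusted p is under 0.05, and circles are single pairs of arrays, open untreated and filled with TGF-beta3. ELF3 and VGLL1 lie to the right for HRAS N116Y against LacZ (1.00 and 1.76) and to the left for HRAS G12V against HRAS N116Y (-1.77 and -2.03), where KLF5 (0.90) and FOXQ1 (0.68) lie to the right.

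Over the 6 adenovirus arrays, which share the 3 vectors and the 2 TGF-beta states, the log2 signals of ELF3 and VGLL1 correlated at r = 0.94. Those of KLF5 and FOXQ1 correlated at r = 0.91, and OVOL1 ran against FOXQ1 at r = -0.95 and against KLF5 at r = -0.88. ELF3 and FOXQ1 correlated at r = 0.23. Among 2295 other genes whose log2 signal ranged over at least 1, those most like ELF3 were CLU (clusterin, a secreted chaperone, r = 0.992) and PLAT (tissue plasminogen activator, r = 0.991). PLAT read 79.3, 49.5 and 164.1 untreated and 35.7, 22.1 and 84.8 with TGF-beta3. Most like VGLL1 were BTN3A3 (a butyrophilin, r = 0.998) and IDO1 (a tryptophan-degrading enzyme induced by interferon, r = 0.995), the latter with 2 signals under the floor of 20. FOXQ1 was most like SMC2 (a condensin subunit, r = 0.997) and ORC6 (of the origin recognition complex, r = 0.996), KLF5 was most like EPAS1 (r = 0.992) and CENPL (r = 0.99), and OVOL1 was most like C1orf74 (r = 0.992) and RDH10 (a retinol dehydrogenase, r = 0.987). KLF4 was nearest to PDCD2 and SLC39A8 (r = 0.964 for each). GRHL3 was nearest to SHPK (0.993) and RAVER2 (0.979), EHF to CCAR2 (0.99) and RCAN1 (0.956), and GRHL2 to STK11IP (0.972) and TPCN1 (0.962). The last 3 members ranged over only 0.34, 0.16 and 0.40 on the log2 scale, so these likenesses rest on small differences. KLF4 and OVOL1 ranged over 0.79 and 0.87, also under the 1 asked of the other genes. Each gene named as most like a member was picked for its r among 2295 over only 6 arrays. A high r was thus in part set by the picking.

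The 2 siRNA arrays were compared with each other to ask what p53 siRNA changes, with 1 array each and no test. VGLL1 read 421.8 with control siRNA and 65.6 with p53 siRNA, 6.43-fold lower (a log2 ratio of -2.69, or -1.66 with its probe sets averaged), and ELF3 read 487.7 and 153.4, 3.18-fold lower. FOXQ1 read 702.6 and 1941.0, 2.76-fold higher, and OVOL1 read 115.7 and 260.6, 2.25-fold higher. These 4 of 9 genes were at least 2-fold apart, 2 in each direction, where 8.51% of genes with a signal of 50 on either array were (2.35% higher and 6.16% lower). EHF read 2504.5 and 1336.8 (log2 ratio -0.91), GRHL3 70.7 and 124.1 (0.81), and KLF5 627.4 and 436.7 (-0.52). GRHL2 (345.0 and 307.6) and KLF4 (1018.7 and 1057.3) had log2 ratios of -0.17 and 0.05. The 3' to 5' actin ratio was 3.68 and 4.01 on these arrays, and its part in the result was not tested.

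**Figure D4:**
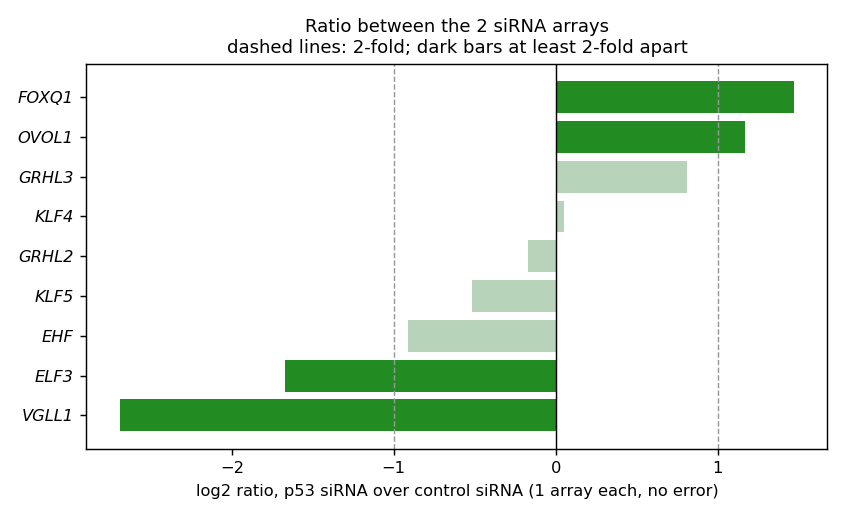
Log2 ratio of p53 siRNA over control siRNA (x axis) for the 9 genes, from 1 array each and without error. Dashed lines mark 2-fold, and dark bars reach it. VGLL1 (-2.69) and ELF3 (-1.67) are lowest, and FOXQ1 (1.47) and OVOL1 (1.17) are highest.

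The other probe sets of a gene were read as a check, without a test. For ELF3 all 3 probe sets gave the same signs in each comparison. Their mean log2 ratios were -1.11 to -0.80 for TGF-beta3, 0.82 to 1.21 for HRAS N116Y against LacZ, -1.10 to -0.77 for HRAS G12V against LacZ and -2.36 to -1.67 for p53 siRNA. A second VGLL1 probe set gave -0.77 for TGF-beta3, 1.28 for HRAS N116Y against LacZ and -2.31 for p53 siRNA, the last with a signal under 20 on the p53 siRNA array, and its remaining probe set was under 20 on all 8 arrays. The second OVOL1 probe set gave 0.33 for TGF-beta3 and 1.02 for p53 siRNA.

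KLF5 and EHF were read differently by their probe sets. The second KLF5 probe set fell with TGF-beta3 as well (mean -0.75). For HRAS G12V against HRAS N116Y it had -0.08, where the chosen one had 0.90. For HRAS N116Y against LacZ it had -0.09, where the chosen one had -0.57. Both differences between vectors thus rest on 1 probe set. Of the 5 other EHF probe sets, 4 had lower signals with TGF-beta3 under HRAS N116Y (log2 ratios -0.67, -1.20, -0.67 and -0.71), where the chosen one had -0.11. The fifth was under a signal of 50 on all 8 arrays. For p53 siRNA, 1 EHF probe set had 0.47 and the other 5, chosen one included, had -0.91 to -0.50.

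**Figure D5:**
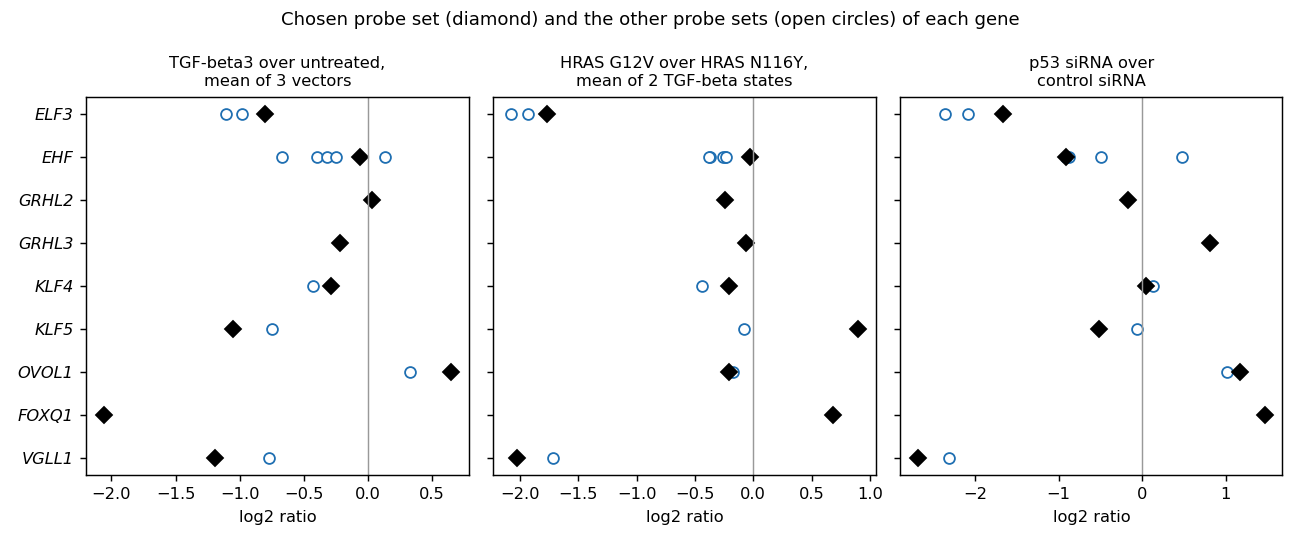
Log2 ratios (x axes) from the chosen probe set (diamond) and the other probe sets (open circles) of each gene (y axis) in 3 comparisons, leaving out the VGLL1 probe set that was under 20 on all 8 arrays. ELF3, VGLL1 and OVOL1 have all their symbols on 1 side of 0 in each panel. For KLF5 the middle panel shows 0.90 for the chosen and -0.08 for the other probe set.

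Other members of the same families were also read. Of 15 tested, 6 rose with TGF-beta3 and 1 fell, where 16.3% of all tested genes were called higher and 17.4% lower. KLF7 rose by 1.60 on the log2 scale, ETS1 by 1.17, ETS2 by 1.05, VGLL3 by 0.95 and KLF10, an early TGF-beta-induced Krüppel-like factor, by 0.54 (adjusted p = 1.77e-05 to 0.00439), while OVOL2 fell as given above. The median of this list was 0.36, against -0.01 over all tested genes. Between the RAS forms, ETS1 and KLF13 were higher with HRAS G12V than with HRAS N116Y (0.70 and 0.82, adjusted p = 0.0469 and 0.0494 in limma's test). Over all tested genes 2.58% were called higher there. The count of 2 became 1 with quantile normalization, a floor of 50 or 10, or no trend in the prior. It became 0 with no filter, a filter of 100 or averaged probe sets. Against LacZ 0 of 15 passed in limma's test (an unadjusted p under 0.05 was seen for 2 under HRAS G12V and for 4 under HRAS N116Y). With p53 siRNA, 2 of 15 relatives with a signal of 50 on either array were at least 2-fold lower and 1 was higher. Of all such genes 6.16% were lower and 2.35% higher, from 1 array each. ETS1 read 763.8 with the control and 222.2 with p53 siRNA, and KLF13 144.8 and 291.4. ELF4, named here after its values were seen, read 688.2 and 293.5.

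Of 7 other tested regulators of epidermis, 2 rose with TGF-beta3 and 0 fell, no larger a share than the 33.8% called over all tested genes. They were PPARD, a nuclear receptor, by 1.00 and TFAP2C, an AP-2 factor, by 0.33 (adjusted p = 0.000672 and 0.0376 in limma's test). GATA3, a zinc-finger factor of the skin, was lower with HRAS G12V than with HRAS N116Y (-0.84, adjusted p = 0.0089 in limma's test). TFAP2C and CEBPB were higher there (0.68 and 0.48), where 6.38% of all tested genes were called either way. With no filter or with averaged probe sets, 0 of these regulators were called between the RAS forms. Of 3 tested transcription factors of the epithelial to mesenchymal transition, 2 rose with TGF-beta3 (16.3% of all tested genes were called higher). SNAI2 rose by 1.63 and TCF4 by 1.07. Of the 6 TEAD factors and co-activators, the partners of VGLL1 and of the YAP1 and WWTR1 co-activators, 3 rose and 1 fell. TEAD3 rose by 0.88, TEAD2 by 0.59 and WWTR1 by 0.41, and TEAD4 fell by 0.68 (adjusted p = 0.00241 to 0.0404 in limma's test). Over all tested genes 16.3% were called higher and 17.4% lower. The TEAD3 value depends on the floor, with 1 of 3 untreated signals below 20. In limma's comparisons of vectors 0 of the 6 passed, with an unadjusted p under 0.05 for 2 (HRAS G12V against LacZ), 0 (HRAS N116Y against LacZ) and 2 (HRAS G12V against HRAS N116Y).

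Barrier and junction genes were called in both directions. Of 13 tested suprabasal genes 5 rose with TGF-beta3 and 2 fell (33.8% of all tested genes were called), with a median of 0.16. SPRR1B and SPRR1A, small proline-rich envelope proteins, rose by 2.68 and 1.79 and IVL (involucrin) by 1.37, while SCEL (sciellin) fell by 2.08 and FLG (filaggrin) by 1.32. Of 21 tested genes of the epithelial programme, 3 rose (CLDN4 by 0.88, PRSS8 by 0.59 and CDH1 by 0.34), EPN3 and MAL2 fell by 1.48 and 0.33, and 16 were not called, with a median of -0.02. These 5 calls of 21 are no larger a share than the 33.8% over all tested genes.

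IVL differed between the RAS forms in the same direction as ELF3 and VGLL1. It read 264.1 (LacZ), 221.5 (HRAS G12V) and 639.6 (HRAS N116Y) untreated, and 503.3, 491.1 and 2625.2 with TGF-beta3. It rose by 1.83 with HRAS N116Y against LacZ (adjusted p = 0.00203) and was lower by a log2 change of -1.97 with HRAS G12V against HRAS N116Y (adjusted p = 0.000607). SPRR1B fell by 1.45 with HRAS N116Y against LacZ (adjusted p = 0.00347 in limma's test), the opposite sign, although both genes rose with TGF-beta3. Both calls for HRAS N116Y against LacZ were lost with no filter and with averaged probe sets. IVL and SPRR1B were the 2 of 13 suprabasal genes called in that comparison, where 2.43% of all tested genes were. Between the RAS forms CSTA and SPRR1B were higher and IVL and KLK7 lower with HRAS G12V, where 6.38% of all tested genes were called. CLDN1 alone was called among the 21 epithelial programme genes (-0.82, adjusted p = 0.0386 in limma's test), no larger a share than that over all tested genes.

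With p53 siRNA, 5 of 14 suprabasal genes with a signal of 50 on either array were at least 2-fold lower and 1 was higher. Of all such genes 6.16% were lower and 2.35% higher, from 1 array each and without a test. IVL read 591.7 with control siRNA and 98.4 with p53 siRNA, and FLG read 217.8 and 457.9. The calgranulins S100A8 and S100A9 and the related S100A7 were named here after their values were seen. They read 569.7, 240.1 and 281.4 with control siRNA and 33.9, 10.2 and 10.8 with p53 siRNA. They are among the 5 lower genes and reached a signal of 50 on the control array only. Of 21 epithelial programme genes 1 was at least 2-fold lower, RAB25, a small GTPase of epithelia, which read 770.5 and 347.4 and was also named after its values were seen. That 1 of 21 lies near the share over all genes.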

How the data were processed

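RNA from 8 HaCaT samples was labelled with biotin and measured on 1-colour Affymetrix arrays, 1 per group. The deposited values are linear intensities per probe set, and the submitters' processing notes name MAS5 5.0. The authors had scaled each array to a 2% trimmed mean of about 100, as the values show. The sources used here give no genome build. Groups were taken from the titles, which match the TGF-beta stimulation field; the source name, which states the reverse for the 6 adenovirus samples, was set aside.

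Each array was rescaled to a trimmed mean of 100, values under 20 were raised to 20, and log2 was taken, which shrinks changes of dim genes. Of 54675 probe sets, 41097 carried a single gene symbol, 1801 several and 11777 none here. Those with 1 were used, with symbols updated through RefSeq's gene table, in which 41043 were matched. An additive model (vector plus TGF-beta) was fitted to the 6 adenovirus arrays in limma 3.58.1 (R 4.3.3), with eBayes using a trend and p-values adjusted by Benjamini-Hochberg over all 8982 tested genes; 2 residual degrees of freedom hold the interaction as well as noise. Calls were made at an adjusted p under 0.05. Single pairs were described by log2 ratios, counting genes at least 2-fold apart with a signal of 50 on either array. The fit was also run on simulated data with additive changes of known size and independent noise. Those data held no interaction, so they do not check how an interaction affects the calls.

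The 9 genes and all gene lists were chosen with earlier results of these data known. The text names the 9 genes, HRAS, up to 4 called genes of each list per comparison (6 for TGF-beta3) and, for each of the 9, the 2 genes with the highest correlation over the 6 arrays. Listed genes without a named probe set here were not analysed here, and the siRNA's own target is not reported here. The alternatives changed the scaling, floor, filter, probe set, prior, model and arrays.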

Additional observations from a re-analysis of the deposited data

How the results depend on the processing

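Of 315 log2 changes of the 9 genes under alternatives, 300 kept their direction, where called, and their side of the threshold, 12 lost a call, 3 gained one and 0 reversed. Of 150 counts of members, 14 moved by over 1.5 times. With the vector left out of the model, 2 genes rather than 4 were lower with TGF-beta3, since the spread between vectors then counts as error. For HRAS N116Y against LacZ, 0 rather than 2 genes were higher in limma's test without the filter and when probe sets were averaged, though 4 of 9 had an unadjusted p under 0.05 each time. For HRAS G12V against HRAS N116Y, 1 rather than 2 genes was higher with quantile normalization and with no trend in the prior, and 0 without the filter or with averaged probe sets. In single pairs, the mean of all probe sets gave 1 rather than 2 genes at least 2-fold lower with TGF-beta3 under HRAS N116Y and 1 rather than 0 lower with HRAS G12V against LacZ under TGF-beta3. It also gave 2 rather than 1 higher with HRAS N116Y against LacZ untreated, 0 rather than 2 higher with it under TGF-beta3, and 0 rather than 1 higher with HRAS G12V against HRAS N116Y untreated. The cause was not tested. Leaving out the arrays of 1 vector at a time gave 4 to 5 lower and 1 to 1 higher genes with TGF-beta3. It gave 1 lower gene with HRAS G12V against LacZ (ELF3) and 1 with HRAS N116Y against LacZ (FOXQ1), where the fit of 6 arrays had 0 of each, and 2 higher there. The comparison of both RAS forms kept 2 in each direction.

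Of 236 counts of called genes in the related lists under alternatives, 58 moved by over 1.5 times. Over all genes, the 3033 calls for TGF-beta3 became 2015 without the vector in the model. The 218 calls for HRAS N116Y against LacZ became 12 with no filter, 37 with averaged probe sets, 107 with no trend and 444 without the HRAS G12V arrays, and the 573 for HRAS G12V against HRAS N116Y became 135, 206 and 339 under the first 3. The 4 calls for HRAS G12V against LacZ became 0 with no filter, 1 to 2 under 5 others (floor of 50, filter of 100, quantile normalization, averaged probe sets, no trend) and 211 without the HRAS N116Y arrays. With no filter, genes at the floor on every array of the fit were left out. The fit with the vector as a term compares TGF-beta states within each vector. No paired analysis by replicate number was possible because the labels give no replicate numbers and each group is 1 array. Depth is not defined for arrays, and changes of genes with signals under the floor of 20 are limited by it.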

Other observations

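The EHF probe sets differed between the adenovirus and the siRNA arrays in a way that the chosen one does not show. The chosen probe set read 1744.2 to 1954.4 on the 6 adenovirus arrays, 2504.5 with control siRNA and 1336.8 with p53 siRNA. Another read 441.9 to 723.2 on the adenovirus arrays and 56.9 and 31.0 on the siRNA arrays, and the next read 433.6 to 687.9 and then 50.9 and 27.0. A further probe set read 154.0 to 353.5 and then 37.6 and 18.2, and another 203.2 to 332.9 and then 87.5 and 121.5. The last, dim on all arrays, read 23.5 to 40.8 and then 35.8 and 25.4. The actin ratio of 3' to 5' was 1.16 to 1.39 on the adenovirus arrays and 3.68 and 4.01 on the siRNA arrays. The way of delivery and this ratio differ between the same arrays and cannot be told apart.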
